A study of Mus musculus with 3 samples.

Results

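The glycan transferases described here are 77 mouse genes of the sialyl-, fucosyl-, galactosyl-, N-acetylglucosaminyl- and N-acetylgalactosaminyltransferase families, among 18193 genes read on the same arrays. They were chosen by symbol alone: every gene whose symbol begins with St3gal, St6gal, St8sia, Mgat, Fut followed by a number, B4galt, B3gnt, Gcnt or Galnt and which has a probe set annotated to it and to no other gene. Together they have 155 such probe sets, and each gene was read by the one with the highest mean log2 signal. RNA was measured in PDL-L2 cells, an immortalised mouse line derived from the fibroblasts of the periodontal ligament, the tissue that holds the tooth in its socket. The 3 arrays comprised cells given siRNA against endoglin and then recombinant human BMP-2 (rhBMP-2) at 250 ng/ml for 12 h (siENG BMP-2), cells given the control siRNA and the same rhBMP-2 for 12 h (siCont BMP-2), and cells given the control siRNA and vehicle for 12 h (siCont vehicle). Both siRNAs were pools supplied by a manufacturer, 48 h passed between transfection and exposure, and all the cells were in a differentiation medium with ascorbic acid and beta-glycerophosphate. Endoglin is a co-receptor for ligands of the TGF-β family, to which BMP-2, a bone-inducing factor, belongs. The purpose was to see which transcripts respond to BMP-2 in these cells and which depend on endoglin when BMP-2 is present.

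Glycan transferases sit mainly in the Golgi apparatus and build the sugar chains of membrane and secreted proteins and lipids, each adding a given sugar to a given acceptor. Galnt enzymes start mucin-type O-glycans on serine or threonine, Mgat enzymes set the number of branches on N-glycans, B4galt, B3gnt and Gcnt enzymes extend and branch the chains, and sialyl- and fucosyltransferases cap or decorate them. In connective tissue such chains cover integrins, growth factor receptors, collagens and other matrix proteins.

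Each condition was a single array of 1 line, so the ratios have no replicate check and no p-value is given. In RNA from whole cultures, fewer cells that express a gene and less of its RNA per cell cannot be told apart. The set has no siENG vehicle array, so an effect of the knockdown alone and an effect on the response to BMP-2 cannot be told apart. The siCont BMP-2 array also enters both the comparison with siENG BMP-2 and the comparison with vehicle, so its own error moves both sets of ratios, in opposite directions. In what follows, the knockdown ratio is the log2 ratio of the siENG BMP-2 signal to the siCont BMP-2 signal, and the BMP-2 ratio is that of siCont BMP-2 to siCont vehicle.

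The signals are linear intensities in arbitrary units. Eng, which encodes endoglin, had 108 in siENG BMP-2 cells, 298.5 in siCont BMP-2 cells and 286 in siCont vehicle cells, a knockdown ratio of -1.46. A gene counts as kept in a comparison, or past the limit on an array, where the higher of its compared signals, or its signal there, reached 23, the median of all signals, and 13.1 was the highest signal of the 27 Bacillus control probe sets and serves as a bound below which a signal is not read as a level. The siENG BMP-2 array was brighter, with a trimmed mean signal of 166, against 143 for siCont BMP-2 and 141 for vehicle. The median log2 ratio over probe sets past the limit was 0.21 for the knockdown ratio, 0.22 for siENG BMP-2 over vehicle and 0.01 for the BMP-2 ratio. Ratios are given as deposited, with the value relative to that median beside most of the siENG ratios. For Eng the relative knockdown ratio was -1.67. Of 11 matched periodontal ligament and fibroblast markers, 9 were past the limit on all 3 arrays, with summed signals between 47664 and 52898, while Aspn and Thy1 stayed at or below 13.1. None of 8 endothelial and none of 8 epithelial markers was past it on all arrays. Kdr and Krt18 were past it in siCont BMP-2 cells only, at 25.8 and 26.5, and Krt14 in vehicle cells only, at 25.2. Epcam was past it in siCont BMP-2 and vehicle cells, at 26.9 and 26.2, against 11.9 in siENG BMP-2 cells. Of 6 matched Schwann and neural markers, Tubb3 and Mbp were past it on all arrays. Of 5 matched osteoblast markers 1 was past the limit on all arrays. Their summed signal was 89.2 in siENG BMP-2, 133 in siCont BMP-2 and 82.9 in vehicle cells, highest with BMP-2 in control cells. Sp7 and Alpl had that order of highest array, at 56.5 and 44.8 in siCont BMP-2 cells. The dimmer Ibsp was highest in vehicle cells, and Phex and Dmp1 in siENG BMP-2 cells. Among leukocyte markers 3 of 9 were past the limit on all arrays, with summed signals of 287 in siENG BMP-2, 215 in siCont BMP-2 and 220 in vehicle cells. Of these, Cd68 had 117.6 in siENG BMP-2, 50 in siCont BMP-2 and 71 in vehicle cells, and Csf1r had 47.7, 31.4 and 40.6. Cd14 went the other way, at 51.9, 76.3 and 70.9 on the same arrays. Lyz2 was past the limit on the BMP-2 arrays only, at 36.3 in siENG BMP-2, 25.9 in siCont BMP-2 and 11.5 in vehicle cells. Ptprc, Cd3e, Itgam and Cd79a stayed at or below 13.1. The part of these differences in the transferase values was not tested.

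The transferases differed widely in whether their signal was readable. Of the 77 genes, 33 (42.9%) were past the limit on all 3 arrays, beside 9911 of 18193 genes (54.5%), and 4 were past it on some arrays only: St3gal6, St8sia2, St8sia5 and Galnt16. The other 40 were below it on every array, and 27 of the 77 were at or below 13.1 on every array. All 7 B4galt genes were readable on all 3 arrays, as were 5 of 10 Mgat, 4 of 6 St3gal, 7 of 18 Galnt, 3 of 6 St6galnac, 3 of 9 Fut, 2 of 4 Gcnt and 2 of 9 B3gnt genes. None of the 6 St8sia and neither of the 2 St6gal genes reached the limit on all 3 arrays.

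**Figure D1:**
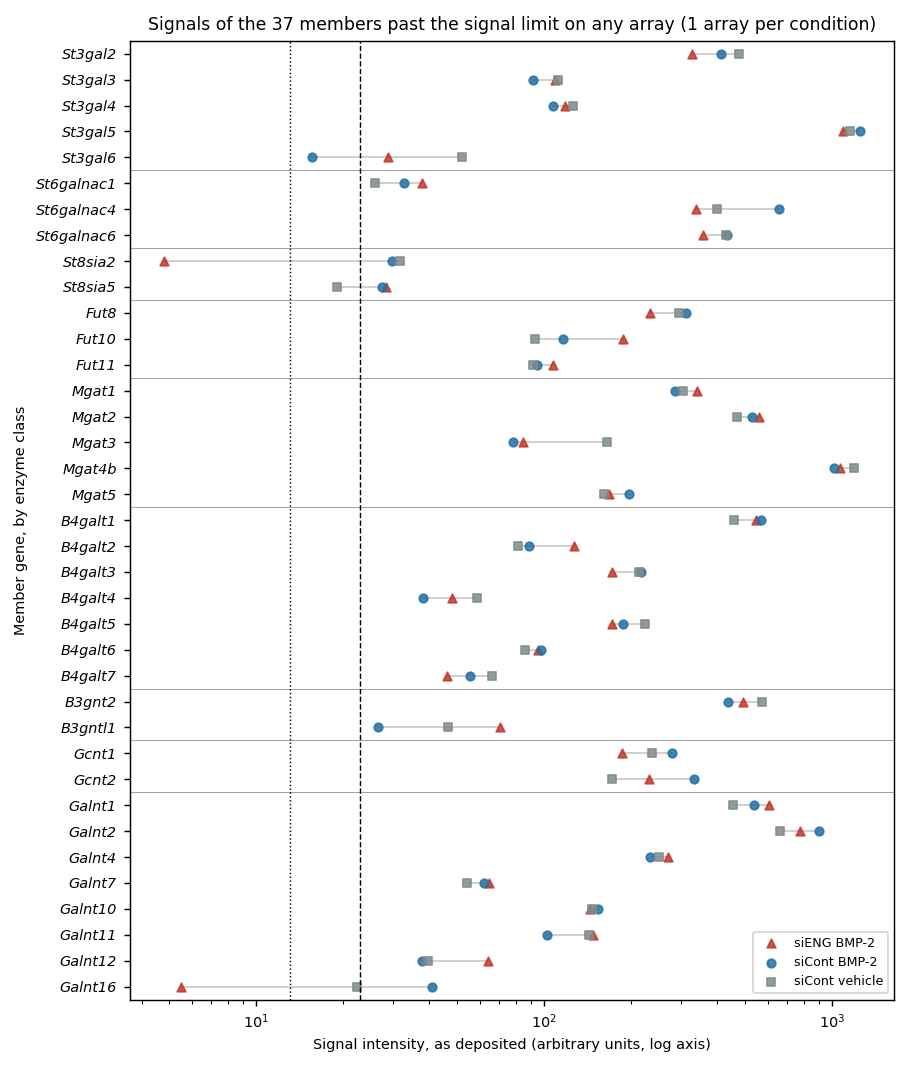
Signals (intensity, log axis) of the 37 transferase genes past the limit on at least 1 array, by enzyme class, with 1 marker per array for siENG BMP-2, siCont BMP-2 and siCont vehicle. The dashed line is the limit of 23 and the dotted line the bound of 13.1; most genes have their 3 markers close together, and St8sia2 and Galnt16 have the siENG BMP-2 marker below the bound.

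The response to BMP-2 in control cells was small for most transferases. Comparing siCont BMP-2 with vehicle, 37 genes were kept and their median log2 ratio was 0.05, beside 0.01 over all 10810 genes kept, with 21 above 0 and 16 below. The log2 ratios ran from -1.74 for St3gal6 to 0.94 for Gcnt2. On their main probe sets none of the 37 reached a signal ratio of 2 or more, where 1.8% of all genes did. A ratio of 0.5 or less was found for 2 of 37 (5.41%), St3gal6 and Mgat3, where 1.57% of all genes had one. Relative to the median of the pair, which lay at 0.01, the counts were the same (background 1.78% and 1.59%). Counts of this size describe single genes and not the group. On other probe sets St6galnac4 and Gcnt2 passed a ratio of 2, as given below. From these same arrays the study tabulated both as raised more than 2-fold by BMP-2, St6galnac4 also as endoglin-dependent, and Mgat3 as lowered. The ratios of Mgat3, St6galnac4 and Gcnt2 are thus no independent evidence of their direction.

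The comparison of siENG BMP-2 with siCont BMP-2 spread further. The median log2 ratio of the 37 genes kept was 0.06 as deposited, beside 0.24 over all 10854 genes kept, with 20 above 0 and 17 below. Relative to the median of the array pair the members' median was -0.15, with 11 above 0 and 26 below. No share above or below 0 over all genes is given, so these sign counts are not read as a result about the transferases. As deposited, 1 gene (2.70%), B3gntl1, had a ratio of 2 or more, against 4.04% of all genes, and 2 genes (5.41%), St8sia2 and Galnt16, had a ratio of 0.5 or less, against 1.66% of all genes. Relative to the median, B3gntl1 was again the 1 gene at 2 or more (background 2.32%), and St6galnac4 joined the genes at 0.5 or less, making 3 of 37 (8.11%, background 2.7%).

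Set against siCont vehicle, siENG BMP-2 kept 36 genes with a median log2 ratio of 0.02, beside 0.25 over all genes kept, 18 above 0 and 18 below. As deposited, Fut10 alone had a ratio of 2 or more (2.78%, background 3.99%) and St8sia2 alone one of 0.5 or less (2.78%, background 1.73%). Relative to the median, none was at 2 or more (background 2.25%) and St3gal6, St8sia2 and Mgat3 were at 0.5 or less (8.33%, background 2.85%).

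**Figure D2:**
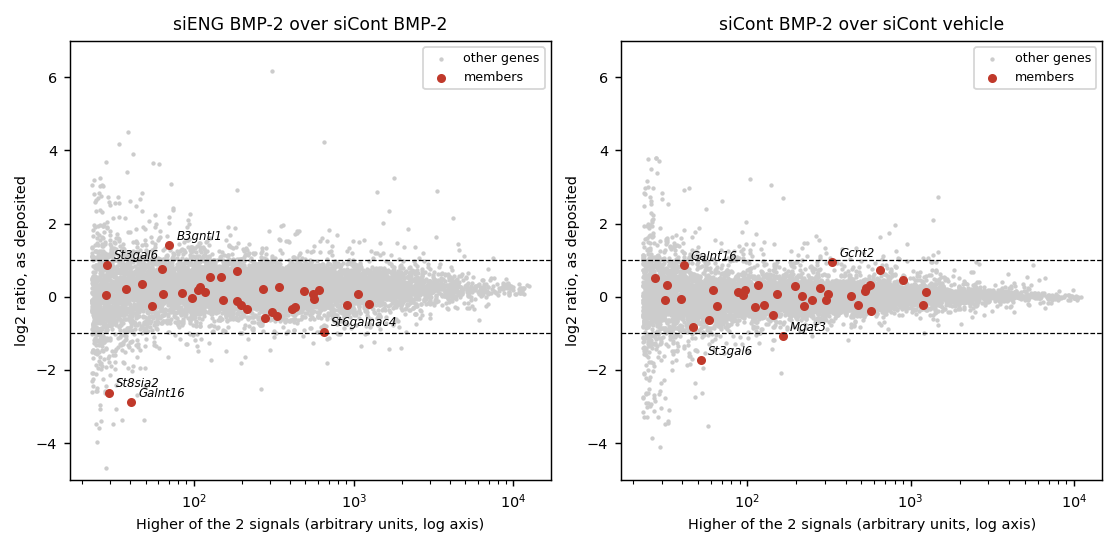
Log2 ratio as deposited (vertical axis) against the higher of the compared signals (horizontal log axis) for genes kept, with the knockdown ratio in the left panel and the BMP-2 ratio in the right, with the transferases in red and all other genes in grey. Dimmer genes scatter more widely in both panels, and St8sia2 and Galnt16, the lowest kept transferases on the left at -2.62 and -2.89, lie in that dim range.

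The scatter of the whole arrays gives a scale for single ratios. In 20 bins of probe sets of like mean signal, the robust SD of the log2 ratio, from the median absolute deviation, was between 2.82 among dim probe sets and 0.22 in the brightest bin for the knockdown ratio, and between 2.65 and 0.11 for the BMP-2 ratio. This spread mixes measurement error with real change, and it stands here as a description and not as a test.

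St6galnac4, which adds a sialic acid to the inner GalNAc of an already sialylated O-glycan, had the largest response to BMP-2 among the kept sialyltransferases that were higher with it. Its signal was 336 in siENG BMP-2 cells, 655 in siCont BMP-2 cells and 398 in siCont vehicle cells. The siCont BMP-2 array was the high one, and the siENG BMP-2 array lay below vehicle. The knockdown ratio was -0.96 (-1.17 relative), where probe sets of like signal had a robust SD of 0.30, and the BMP-2 ratio was 0.72, where it was 0.15. Its second probe set read 90.6 in siENG BMP-2, 213 in siCont BMP-2 and 85.7 in vehicle cells, with a knockdown ratio of -1.23 (-1.44 relative) and a BMP-2 ratio of 1.31. Both probe sets thus gave the same order of siCont BMP-2 above the other two arrays, with a larger ratio on the dimmer one. The summed osteoblast markers had the same highest array, through Sp7 and Alpl and not Ibsp, Phex or Dmp1, and their part in this was not tested. Against vehicle, the siENG BMP-2 log2 ratio was -0.24 (-0.47 relative) on the first probe set and 0.08 (-0.14 relative) on the second.

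The 250 bases upstream of the RefSeq start of St6galnac4 (GRCm38.p6, chr2:32586828-32587077, plus strand) are shown for its BMP-2 ratio, the largest above 0 among the kept sialyltransferases. Capitals mark matches on either strand to the searched letters, which were CAGACA and GGCGCC (boxes bound by Smad proteins, the mediators of BMP and TGF-β signals) and ACGTG and GCGTG (cores of the hypoxia element).
St6galnac4: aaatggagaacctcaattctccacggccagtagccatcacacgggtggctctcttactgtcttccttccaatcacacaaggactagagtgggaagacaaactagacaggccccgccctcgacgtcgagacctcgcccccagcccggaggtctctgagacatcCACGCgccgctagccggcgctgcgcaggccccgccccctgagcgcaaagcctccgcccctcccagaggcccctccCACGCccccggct
The window held 2 matches to GCGTG, both on the minus strand, and none to the other 3 motifs. It had a GC content of 65.2% and 19 CpG sites. A match to GCGTG was present in 28.2% of all 32851 windows of this length, ACGTG in 16.6%, CAGACA in 17.1% and GGCGCC in 9.59%. Of the 77 transferases, 55 had such windows, 77 in all, of which 29 (37.7%) held GCGTG, 13 (16.9%) ACGTG, 15 (19.5%) CAGACA and 11 (14.3%) GGCGCC. The median GC content was 59.2% in the transferase windows and 52.4% over all windows. A match is a run of letters and was not tested as a binding site.

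The other kept members of the St6galnac class varied less. St6galnac6, which sialylates gangliosides, had 355.5 in siENG BMP-2 cells, 433 in siCont BMP-2 cells and 429.6 in vehicle cells, so the siENG BMP-2 array was the low one, at a log2 ratio of -0.28 (-0.49 relative) to siCont BMP-2, and the 2 control arrays differed by 0.01. St6galnac1, which makes the sialyl-Tn antigen by capping the first GalNAc of an O-glycan, was near the limit at 37.6 in siENG BMP-2, 32.5 in siCont BMP-2 and 25.9 in vehicle cells. Its knockdown ratio of 0.21 (0.00 relative) and its BMP-2 ratio of 0.33 were below the robust SD of probe sets of that signal. St6galnac2, St6galnac3 and St6galnac5 did not reach the limit on any array.

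St3gal enzymes place sialic acid on terminal galactose. On their main probe sets all 5 kept members had a lower signal in siENG BMP-2 cells than in vehicle cells, with log2 ratios between -0.86 and -0.04 (-1.08 and -0.26 relative), and 4 of 5 were lower in siCont BMP-2 than in vehicle cells. No share over all genes is given for these directions. As deposited, siENG BMP-2 over vehicle was -0.04 for St3gal3, -0.10 for St3gal4 and -0.07 for St3gal5. These were within the robust SD at like signal, of 0.37, 0.37 and 0.22. St3gal2 and St3gal6 were beyond theirs, of 0.30 and 0.48. The second probe sets of St3gal3 and St3gal5 were higher in siENG BMP-2 than in vehicle cells as deposited, at 0.17 (-0.05 relative) and 0.11 (-0.12 relative). St3gal6, which acts mainly on lactosamine ends, gave 28.7 in siENG BMP-2, 15.6 in siCont BMP-2 and 52.0 in vehicle cells. Vehicle was the high array and siCont BMP-2 the low one, little above the bound of 13.1. Its knockdown ratio was 0.88 (0.67 relative, robust SD at that signal 0.63) and its BMP-2 ratio was -1.74 (robust SD 0.51). Its second probe set was below the limit on every array, at 3.7 in siENG BMP-2, 13.5 in siCont BMP-2 and 19.0 in vehicle cells, and did not repeat the higher signal in siENG BMP-2 than in siCont BMP-2 cells.

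St3gal2, which sialylates O-glycans and gangliosides, had 327 in siENG BMP-2, 411 in siCont BMP-2 and 476 in vehicle cells. Its 3 brightest probe sets kept this order, with knockdown ratios of -0.33, -0.63 and -0.35 and BMP-2 ratios of -0.21, -0.36 and -0.29. Over the whole span from siENG BMP-2 to vehicle the main probe set gave -0.54. St3gal5, the enzyme that turns lactosylceramide into the simplest ganglioside, had 1094 in siENG BMP-2, 1247 in siCont BMP-2 and 1150.4 in vehicle cells. Its knockdown ratio was -0.19 (-0.40 relative) and its BMP-2 ratio 0.12. Its second probe set had 766 in siENG BMP-2, 805 in siCont BMP-2 and 711.5 in vehicle cells, again with siCont BMP-2 highest. St3gal4 had 118 in siENG BMP-2, 107.5 in siCont BMP-2 and 126.5 in vehicle cells, and St3gal3 had 109, 91.5 and 112 on the same arrays. For St3gal3, the second probe set went against the first, with 36.9 in siENG BMP-2, 53.1 in siCont BMP-2 and 32.8 in vehicle cells, so the direction for this gene depended on the probe set. St3gal1 was below the limit, at most 7.7.

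The classes that place sialic acid in other linkages were dim. St6gal1, the enzyme that caps N-glycans in many tissues, had 13.9 in siENG BMP-2, 3.9 in siCont BMP-2 and 22.9 in vehicle cells, the last just under the limit. St6gal2 had at most 4.3. St8sia2, which with St8sia4 builds polysialic acid on the neural cell adhesion molecule, had 4.8 in siENG BMP-2, 29.6 in siCont BMP-2 and 31.5 in vehicle cells. The control arrays lay just past the limit and the siENG BMP-2 array lay below the bound. With the control signals taken as read, the siENG BMP-2 signal was at least 2.26-fold lower than in siCont BMP-2 and at least 2.40-fold lower than in vehicle cells. Probe sets of like signal had a robust SD of 0.85 for the knockdown ratio and 0.74 for siENG BMP-2 over vehicle. The second probe set of St8sia2 read 6.7 in siENG BMP-2, 10.9 in siCont BMP-2 and 26.9 in vehicle cells. That probe set was low with BMP-2 in the control cells too, which the first was not.

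St8sia5, which extends ganglioside sialic acid chains, had 28.3 in siENG BMP-2, 27.3 in siCont BMP-2 and 19.1 in vehicle cells, close to the limit throughout. On their main probe sets St8sia4 was at most 9.3, St8sia1 at most 9.4, St8sia3 at most 17.5 and St8sia6 at most 21.8. Other probe sets, also below the limit, reached 14.5 for St8sia4 in vehicle cells and 13.2 for St8sia1 in siCont BMP-2 cells.

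**Figure D3:**
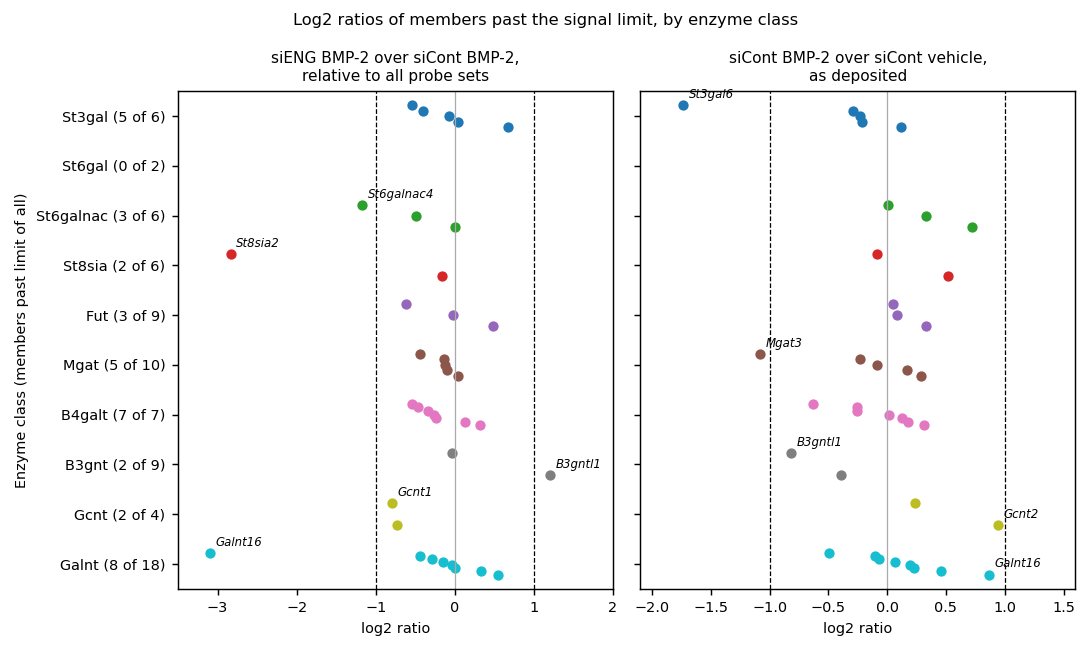
Log2 ratios of the kept transferases by enzyme class, with the knockdown ratio relative to the array median on the left and the BMP-2 ratio as deposited on the right, 1 point per gene; dashed lines mark ratios of 2 and 0.5. On the left B3gntl1 lies above the upper line and St6galnac4, St8sia2 and Galnt16 below the lower one, and on the right St3gal6 and Mgat3 lie below it.

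The readable fucosyltransferases were 3 of 9, all readable on every array. Fut10 had 188 in siENG BMP-2 cells, 116 in siCont BMP-2 cells and 92.7 in vehicle cells. It was highest with endoglin knocked down, at a log2 ratio of 0.69 (0.48 relative) to siCont BMP-2 and 1.02 (0.80 relative) to vehicle. Both of its other readable probe sets were also highest in siENG BMP-2 cells, with 83.8 in siENG BMP-2 against 50.7 in siCont BMP-2 and 56.9 in vehicle cells for the second, and 33.3 in siENG BMP-2 against 17.8 in siCont BMP-2 and 16.4 in vehicle cells for the third. The BMP-2 response without knockdown was smaller and differed in sign between them, at log2 ratios of 0.33, -0.17 and 0.12. Fut8, which adds the core fucose to N-glycans, had 234 in siENG BMP-2, 310.4 in siCont BMP-2 and 293.5 in vehicle cells. The siENG BMP-2 array was the low one for Fut8, at -0.41 (-0.62 relative), while siCont BMP-2 and vehicle differed by 0.08. Fut11 was at a like signal on all 3 arrays, with 107 in siENG BMP-2, 94.4 in siCont BMP-2 and 91.3 in vehicle cells. The fucosyltransferases known for blood group and Lewis antigens, Fut1, Fut2, Fut4, Fut7 and Fut9, and the pseudogene Fut4-ps1, were below the limit, with no signal above 13.4.

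Mgat3 adds the bisecting GlcNAc to N-glycans, which is known to hinder further branching. Its signal was 84.4 in siENG BMP-2, 78.2 in siCont BMP-2 and 165.5 in vehicle cells. Vehicle stood apart as the high array, and both BMP-2 arrays were close to each other. The knockdown ratio was 0.11 (-0.10 relative), the BMP-2 ratio -1.08 (robust SD at that signal 0.26), and the log2 ratio -0.97 (-1.19 relative) for siENG BMP-2 over vehicle. The second probe set had 20.1 in siENG BMP-2, 13.2 in siCont BMP-2 and 28.8 in vehicle cells, with the same order of arrays and a BMP-2 ratio of -1.13, though only vehicle was past the limit.

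The enzymes that start and branch N-glycans showed smaller ratios. Mgat1, which starts hybrid and complex N-glycans, had 341 in siENG BMP-2, 286 in siCont BMP-2 and 303 in vehicle cells. Mgat2, which starts the next antenna, had 557 in siENG BMP-2, 526 in siCont BMP-2 and 469 in vehicle cells, while its second probe set had the siENG BMP-2 array low, at 89.4 against 117 in siCont BMP-2 and 124 in vehicle cells. Mgat4b, a branching enzyme, had 1069 in siENG BMP-2, 1017 in siCont BMP-2 and 1196 in vehicle cells. Of the knockdown and BMP-2 ratios of their main probe sets as deposited, that of Mgat1 with knockdown was the largest in size, at 0.25, and it was 0.04 relative to the median. Mgat5, which makes the branch that carries many galectin ligands, had 168 in siENG BMP-2, 197 in siCont BMP-2 and 161 in vehicle cells, a knockdown ratio of -0.23 (-0.44 relative) and a BMP-2 ratio of 0.29. On its second probe set siENG BMP-2 was again the low side of that pair, at 73.6 against 116 in siCont BMP-2 and 113 in vehicle cells. Mgat4a, Mgat4c, Mgat4d, Mgat4e and Mgat5b had no signal above 20.1.

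Gcnt2, the I-branching enzyme of polylactosamine chains, had 232 in siENG BMP-2, 332 in siCont BMP-2 and 173 in vehicle cells. The siCont BMP-2 array was high, and the siENG BMP-2 array lay between it and vehicle. The knockdown ratio was -0.52 (-0.73 relative, robust SD 0.33) and the BMP-2 ratio 0.94 (robust SD 0.19). Another 4 probe sets were past the limit on all arrays, and each had the same highest array, with knockdown ratios of -0.23, -0.45, -0.55 and -0.67 and BMP-2 ratios of 0.67, 1.36, 1.13 and 0.73. The highest of these BMP-2 ratios came from a probe set with 96.7 in siENG BMP-2, 132 in siCont BMP-2 and 51.6 in vehicle cells. A dimmer probe set, at 15.0 in siENG BMP-2, 21.0 in siCont BMP-2 and 24.4 in vehicle cells, did not follow, with a BMP-2 ratio of -0.22. As read by the main probe set Gcnt2 stayed under a ratio of 2, while 2 of its other probe sets passed it.

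Gcnt2 is known to start at several first exons, which give isoforms with different catalytic parts, and RefSeq lists 3 starts here. The 250 bases upstream of each (GRCm38.p6, plus strand, chr13:40859518-40859767 for start 1, chr13:40886508-40886757 for start 2 and chr13:40917384-40917633 for start 3) are shown to let the starts be told apart.
Gcnt2 start 1: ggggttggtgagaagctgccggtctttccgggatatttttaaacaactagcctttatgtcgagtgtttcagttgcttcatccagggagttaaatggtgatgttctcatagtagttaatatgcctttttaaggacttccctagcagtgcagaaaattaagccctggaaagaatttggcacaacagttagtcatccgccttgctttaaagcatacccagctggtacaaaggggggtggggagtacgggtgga
Gcnt2 start 2: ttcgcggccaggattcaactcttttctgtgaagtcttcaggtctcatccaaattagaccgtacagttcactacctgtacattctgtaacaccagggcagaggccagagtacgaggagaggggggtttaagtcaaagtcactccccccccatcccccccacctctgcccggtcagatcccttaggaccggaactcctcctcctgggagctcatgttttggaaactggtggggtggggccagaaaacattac
Gcnt2 start 3: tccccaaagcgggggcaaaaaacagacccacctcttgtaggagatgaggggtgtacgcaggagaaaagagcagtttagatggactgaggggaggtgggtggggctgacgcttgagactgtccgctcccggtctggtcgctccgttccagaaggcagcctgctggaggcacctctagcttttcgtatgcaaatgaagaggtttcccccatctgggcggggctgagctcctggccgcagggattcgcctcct
None held a match to the 4 motifs on either strand, so no letter is in capitals. Their GC contents were 45.6%, 54.0% and 59.6%, with 5, 6 and 11 CpG sites, for starts 1, 2 and 3. Which start the probe sets read was not tested.

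Gcnt1, which makes the branched core of O-glycans, had 186 in siENG BMP-2, 279 in siCont BMP-2 and 237 in vehicle cells. The knockdown ratio was -0.58 (-0.79 relative) and the BMP-2 ratio 0.24. Its second probe set had 39.5 in siENG BMP-2, 57.1 in siCont BMP-2 and 76.3 in vehicle cells, with siENG BMP-2 again the lowest but siCont BMP-2 below vehicle. Gcnt3 and Gcnt7 had at most 7.5.

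**Figure D4:**
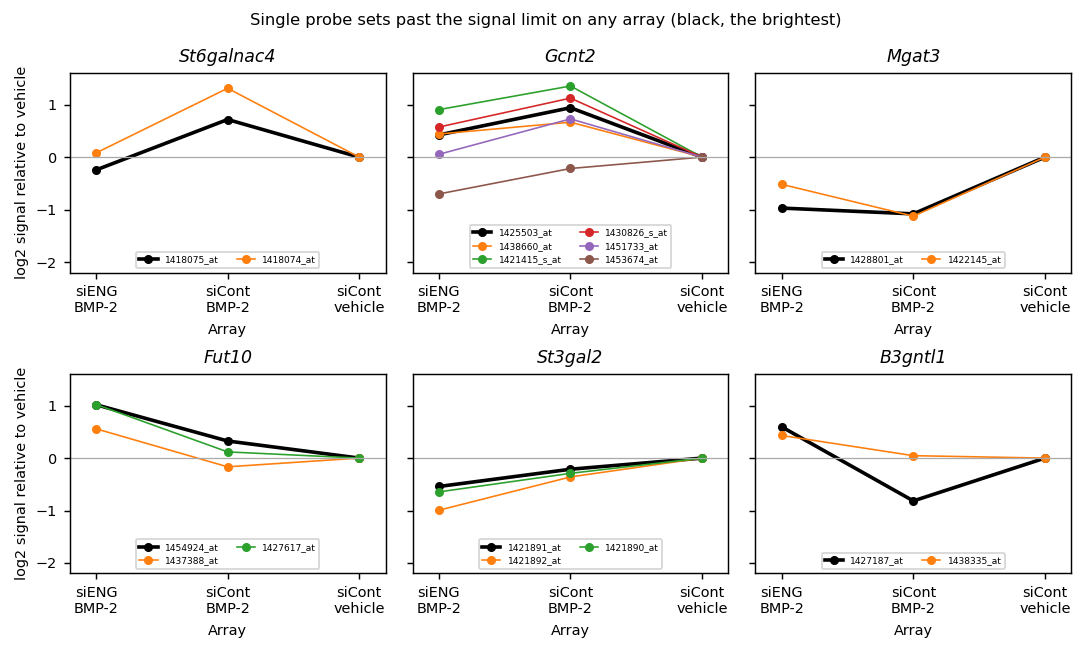
Log2 signal of each probe set relative to its own vehicle signal on the siENG BMP-2, siCont BMP-2 and siCont vehicle arrays, as deposited, for St6galnac4, Gcnt2, Mgat3, Fut10, St3gal2 and B3gntl1, with the brightest probe set in black. Both St6galnac4 probe sets peak at siCont BMP-2, the Fut10 probe sets are highest at siENG BMP-2, and the 2 B3gntl1 probe sets differ at siCont BMP-2, at -0.82 and 0.05.

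The B3gnt class had 2 readable members. B3gnt2, a main enzyme of polylactosamine extension, had 490.4 in siENG BMP-2, 437 in siCont BMP-2 and 573 in vehicle cells. Vehicle was high, with a BMP-2 ratio of -0.39 (robust SD 0.15) on this probe set and -0.20 on the second. B3gntl1, named for its likeness to this family, had 70.2 in siENG BMP-2, 26.4 in siCont BMP-2 and 46.5 in vehicle cells. Here siCont BMP-2 was the low array and near the limit, with a knockdown ratio of 1.41 (1.20 relative, robust SD 0.49) and a BMP-2 ratio of -0.82 (robust SD 0.44). Its second probe set had 33.3 in siENG BMP-2, 25.5 in siCont BMP-2 and 24.7 in vehicle cells. That probe set shared the higher siENG BMP-2 signal, at 0.39 (0.18 relative, robust SD 0.56), and not the low one with BMP-2 in control cells. The 7 genes B3gnt3, B3gnt4, B3gnt5, B3gnt6, B3gnt7, B3gnt8 and B3gnt9 were below the limit, at most 15.8.

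B4galt enzymes add galactose to GlcNAc, glucose or xylose, and none of the 7 members passed 2-fold on its main probe set. B4galt1, the widely used galactosyltransferase of N-glycans, had 546 in siENG BMP-2, 565 in siCont BMP-2 and 455.5 in vehicle cells, a knockdown ratio of -0.05 (-0.26 relative) and a BMP-2 ratio of 0.31. B4galt2 was highest in siENG BMP-2 cells, at 127 against 88.3 in siCont BMP-2 and 81.1 in vehicle cells, with a knockdown ratio of 0.53 (0.32 relative), and its second probe set gave 0.13 (-0.08 relative). B4galt4 had 47.8 in siENG BMP-2, 37.9 in siCont BMP-2 and 58.7 in vehicle cells, the widest BMP-2 ratio of the class at -0.63. B4galt5 and B4galt6, which make lactosylceramide, had BMP-2 ratios of -0.25 and 0.18, B4galt7, which builds the linker of glycosaminoglycans, gave -0.25, and B4galt3 gave 0.02. The other 3 probe sets of B4galt6, all past the limit, gave larger BMP-2 ratios of 0.51, 0.83 and 0.26, the highest from 56.9 in siENG BMP-2, 54.3 in siCont BMP-2 and 30.6 in vehicle cells. On the main probe sets the knockdown ratios were -0.13 for B4galt5, -0.03 for B4galt6, -0.26 for B4galt7 and -0.33 for B4galt3, each below 0.

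The Galnt enzymes, which begin O-glycans, included 8 kept members. Galnt2, a broadly expressed member, had 773 in siENG BMP-2, 905 in siCont BMP-2 and 659.6 in vehicle cells. Vehicle was the low array, with BMP-2 ratios between 0.37 and 0.46 on its 3 probe sets, where the main one had a robust SD at like signal of 0.15. The knockdown ratio was -0.23 (-0.44 relative) on the main probe set, while the second had 733 in siENG BMP-2, 719 in siCont BMP-2 and 556 in vehicle cells, a knockdown ratio of 0.03 that was -0.18 relative to the median. Galnt1, also broadly expressed, had 605 in siENG BMP-2, 534 in siCont BMP-2 and 455 in vehicle cells, a knockdown ratio of 0.18 that was -0.03 relative to the median. Its BMP-2 ratio was 0.23, and -0.04 on the second probe set. Galnt11 had 148 in siENG BMP-2, 102 in siCont BMP-2 and 143 in vehicle cells, with the siCont BMP-2 array low, a knockdown ratio of 0.54 (0.33 relative) and a BMP-2 ratio of -0.49. Galnt12 was high on the siENG BMP-2 array, at 63.7 against 37.7 in siCont BMP-2 and 39.5 in vehicle cells, a knockdown ratio of 0.76 (0.55 relative).

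Galnt16 had 5.5 in siENG BMP-2, 40.8 in siCont BMP-2 and 22.4 in vehicle cells. Only the siCont BMP-2 array was past the limit, and the siENG BMP-2 signal, below the bound, was at least 3.11-fold lower than in siCont BMP-2 cells. A gene past the limit on 1 array alone had to differ, so this ratio rests on a dim probe set. The fold takes the siCont BMP-2 signal as read, and the robust SD of the knockdown ratio at like signal was 0.76. Galnt4, Galnt7 and Galnt10, known for acting on partly glycosylated peptides, were between 233 and 269.8, between 53.9 and 64.4, and between 145 and 153 over the 3 arrays, with little separation of the conditions. Galnt3, Galnt5, Galnt6, Galnt9, Galnt13, Galnt14, Galnt15, Galnt18, Galntl5 and Galntl6 had no signal above 16.8.

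Probe sets of 1 gene did not always point the same way. Among genes with 2 or more probe sets past the limit, all of these had the same sign in 13 of 19 for the knockdown ratio, 13 of 21 for the BMP-2 ratio and 13 of 21 for siENG BMP-2 over vehicle. Their highest and lowest log2 ratios differed by a median of 0.25, 0.25 and 0.32 in the same order of comparisons, and by up to 1.03, 1.57 and 1.61. Among the genes above, St6galnac4, St3gal2 and Mgat3 had the same sign of the BMP-2 ratio on every probe set past the limit, and Gcnt2 had it on all but its dim one. Both signs were seen for St3gal3, Fut10, Fut11, Mgat2, B3gntl1, Gcnt1 and Galnt1.

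The genes around the transferases in the glycosylation pathway had BMP-2 ratios near those of all genes. Of 10 genes that supply activated sialic acid and fucose, all 10 were kept, none was past 2-fold in either comparison with siCont BMP-2, and the median knockdown ratio was 0.44 (0.23 relative), beside 0.24 over all genes. For the supply of UDP-sugars 12 of 13 matched genes were kept with a median knockdown ratio of 0.22 (0.01 relative) and a median BMP-2 ratio of 0.13. For the 9 N-glycan trimming enzymes those medians were 0.09 (-0.12 relative) and -0.01. For 7 kept genes of 14 matched among other Golgi galactosyl- and N-acetylgalactosaminyltransferases they were 0.15 (-0.06 relative) and -0.12, and none of these genes was past 2-fold in either comparison.

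The enzymes that take glycans apart and the lectins that bind them stood somewhat higher in siENG BMP-2 cells. The median knockdown ratio was 0.48 (0.27 relative) over 8 kept sialidases and lysosomal glycosidases and 0.67 (0.46 relative) over 6 kept galectins. Of these galectins, Lgals4 was kept through the siENG BMP-2 array alone, at 29.2 against 19.9 in siCont BMP-2 cells. Lgals12, just short of the limit in this pair, went the other way, at 7.0 in siENG BMP-2 and 22.3 in siCont BMP-2 cells. The galectin median thus depends in part on the limit. Naglu, a lysosomal glucosaminidase, was the 1 kept gene of both lists past 2-fold as deposited in that comparison. It had 146 in siENG BMP-2, 71.2 in siCont BMP-2 and 83.7 in vehicle cells, and it was under 2 relative to the median. Neu1, the lysosomal sialidase, had 538 in siENG BMP-2, 280 in siCont BMP-2 and 307 in vehicle cells. Lgals3, the galectin that binds polylactosamine, had 93.3 in siENG BMP-2, 47.0 in siCont BMP-2 and 50.8 in vehicle cells. On the same array pair 12 of 17 kept hypoxia-responsive genes and 7 of 13 kept interferon-stimulated genes were at 2-fold or higher, 10 and 5 relative to the median, and the part of these in the transferase values was not tested.

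**Figure D5:**
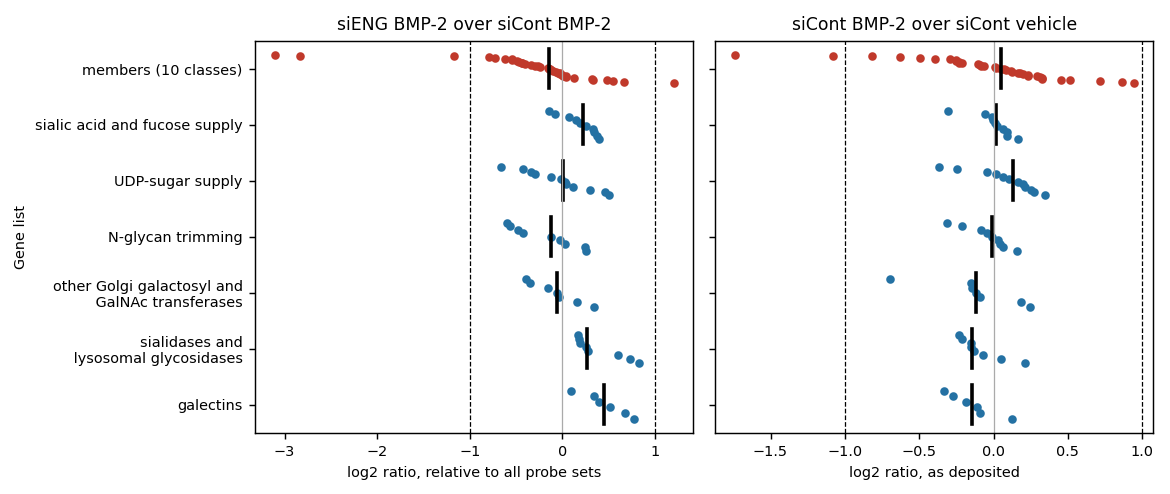
Log2 ratios of the kept transferases and of 6 other lists of glycosylation genes, 1 point per gene with a bar at the median, with the knockdown ratio relative to the array median on the left and the BMP-2 ratio as deposited on the right. On the left the galectins have the highest median, at 0.46, and the transferases the widest range, and on the right all medians lie between -0.15 and 0.13.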

How the data were processed

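Total RNA of each of the 3 cultures was hybridised to 1 Affymetrix mouse array of 45101 probe sets. The values the authors deposited are linear signal intensities, 1 for each probe set on each array, made with GCOS 1.4 as the submitters' notes have it; scaling and detection calls were not given in the sources used here. GEO's platform annotation gave 34958 probe sets 1 gene symbol, 932 several and 9211 none, and genes were read from the first kind, leaving out 64 control probe sets. Signals of 0 were set to 0.1. A gene was kept in a comparison where the higher signal reached 23, the median of all signals. A signal at or below 13.1 was replaced by 13.1 for a fold given as "at least". Ratios, medians and robust SDs were computed with Python 3.11.15, numpy 2.4.6 and pandas 2.3.3, and the calculations were tested on simulated data. Promoter windows are from RefSeq. Marker, pathway and motif lists were fixed, as was a rule that named 23 members (those past 2-fold, the 2 largest ratios per class, genes the study tabulated, and genes with opposed probe sets), and the values of the other members past the limit were added to account for each. The members and lists were chosen with earlier results of these data known. List genes without a single-symbol probe set were not analysed here. Alternatives covered the limit, the floor, scaling and the choice of probe set. With 1 array per condition, their number limits the precision.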

Additional observations from a re-analysis of the deposited data

How the results depend on the processing

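Reported counts of transferases past 2-fold were small and moved with the processing, and each value here stands beside the reported one. With no signal limit all 77 genes entered, including the dim ones, where probe sets of like signal scatter most. Apart from the setting relative to the median, no share over all genes is given for these alternatives. The counts therefore show how the calls move and are not read as results about the transferases. For siCont BMP-2 over vehicle, the count at a ratio of 2 or more (0 as reported) was 4 with no signal limit, 3 with the mean over probe sets and 1 with the second probe set. The count at 0.5 or less (2 as reported) was 12 with no limit and 1 when the limit was raised to the 75th percentile of signals, and the median (0.05) was -0.085 with no limit. For the knockdown comparison (siENG BMP-2 against siCont BMP-2), the count at 2 or more (1 as reported) was 15 with no limit and 0 with the 75th percentile or the second probe set, and that at 0.5 or less (2 as reported) was 10 with no limit, 1 with the second probe set and 0 with the 75th percentile, with signals floored at the median of 23, or with the limit on the mean signal, an alternative chosen after seeing the data. The median (0.06) was -0.16 with the 75th percentile, -0.15 relative to the array median and with trimmed-mean scaling, -0.14 with quantile normalisation and -0.071 with the second probe set. For siENG BMP-2 over vehicle, the count at 2 or more (1 as reported) was 13 with no limit, 2 with the mean over probe sets and 0 relative to the median, with trimmed-mean scaling, with quantile normalisation or with the second probe set. That at 0.5 or less (1 as reported) was 15 with no limit, 4 with trimmed-mean scaling, 3 relative to the median, 2 with quantile normalisation or the mean over probe sets, and 0 with the 75th percentile, the floor at 23 or the limit on the mean signal. The median (0.02) was -0.12 with the 75th percentile, -0.20 relative to the median, -0.26 with trimmed-mean scaling and -0.24 with quantile normalisation. The cause of these moves was not tested, beyond the brighter siENG BMP-2 array, which the scalings remove, and the dim signals that the limits remove. Of 781 log2 ratios of single kept genes under the alternatives, 63 moved by more than the robust SD at like signal, and no ratio past 2-fold changed sign. Smaller ratios did: 88 of the 781 changed sign, 18 with the mean over probe sets, 18 with the second probe set and the rest with scaling. With the mean over all probe sets, dim ones included, the BMP-2 ratio was -0.70 for Mgat5 (0.29 as reported), 0.34 for Galnt11 (-0.49), -0.31 for Fut8 (0.08), 0.20 for St3gal3 (-0.29) and -0.091 for Gcnt1 (0.24). The knockdown ratio was then 1.12 for Fut8 (-0.41 as reported), -0.22 for St3gal6 (0.88), 0.19 for Mgat5 (-0.23) and 0.14 for B4galt3 (-0.33). The siENG BMP-2 calls for St8sia2 and Galnt16 rest on signals just past the limit. No paired analysis was possible because each condition has 1 array.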
